A study of Mus musculus with 27 samples.

Results

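The RNA of the 8 immunoglobulin heavy constant genes was followed through all 27 libraries. The genes are Ighm, Ighd, Ighg3, Ighg1, Ighg2b, Ighg2c, Ighe and Igha, which encode the constant regions of IgM, IgD, the 4 mouse IgG subclasses of this strain, IgE and IgA. They were taken from the 55487 genes of the count table as the rows whose Ensembl identifier carries one of these symbols in GENCODE M21, and each symbol matched 1 row. In all, 7 of the 8 passed the filter on low counts (at least 10 counts in at least 4 libraries) and were tested. Ighe did not pass, since it had 2 counts in 1 library and 0 in the other 26.

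The animals were male C57Bl/6J wild-type mice, 8 weeks old, which received a continuous infusion into the right lateral ventricle for 14 days at 0.25 µl/h from an osmotic pump. They received PBS, a control human IgG (called control IgG here) or human α-IgLON5 antibodies purified from patient plasma. The labels call the control a non-reactive monoclonal IgG, whereas the study's account of the infusion calls it IgG from healthy serum. RNA came from the hemisphere opposite to the infusion and was bulk tissue, although the labels give the cell type as neurons. There were 5 PBS, 5 control IgG and 4 α-IgLON5 mice with a cortex library, and all but control IgG mouse 11 also gave a hippocampus library. Since the infused antibodies were human protein, the counts measured RNA of the mouse's own genes.

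Each B cell makes its antibodies from 1 rearranged variable region joined to a constant gene. IgM comes first, IgD is spliced from the same long transcript, and class switch recombination then deletes the DNA in between and places IgG, IgE or IgA next to the variable region. Cytokines steer the choice, as interferon gamma is known to favour IgG2c in this strain, interleukin 4 to favour IgG1 and IgE, and TGF-β to favour IgA and IgG2b. B cells put the receptor form on their surface, plasma cells secrete the same class in large amounts, and constant genes can also be transcribed without a variable region. Counts per gene hold all of these forms together, so secreted, surface and unrearranged transcripts could not be told apart.

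All 8 genes lie on the minus strand of chromosome 12 (GRCm38), from Ighm at chr12:113418558-113422730 through Ighd, Ighg3, Ighg1, Ighg2b, Ighg2c and Ighe to Igha at chr12:113254830-113260236, and no other annotated gene overlaps any of them. The IgG genes are close copies, so the letters that separate them are given here for the 4 subclasses whose counts went different ways. The hinge, a short exon (exon 2) between the first 2 domains, differs in length as well as letters. It is printed 5′ to 3′ along the transcript in lower case and lies at chr12:113360529-113360576 in Ighg3, chr12:113329844-113329882 in Ighg1, chr12:113307261-113307326 in Ighg2b and chr12:113288263-113288325 in Ighg2c.
Ighg3 hinge: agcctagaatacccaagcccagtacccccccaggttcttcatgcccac
Ighg1 hinge: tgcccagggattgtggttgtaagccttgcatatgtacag
Ighg2b hinge: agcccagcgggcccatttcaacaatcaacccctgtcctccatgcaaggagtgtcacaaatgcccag
Ighg2c hinge: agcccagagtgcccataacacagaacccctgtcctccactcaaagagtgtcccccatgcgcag

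The hinge measures 48, 39, 66 and 63 bases in these genes. The last domain (CH3, exon 4) has 315 bases in all 4 and is 76.2% identical between Ighg2b and Ighg2c, the closest pair, and 64.1% identical between Ighg3 and Ighg2c, the most distant. Its first 60 bases are printed with capitals at each base that differs from Ighg2b at the same position. They lie at chr12:113359928-113359987 (Ighg3), chr12:113329239-113329298 (Ighg1), chr12:113306652-113306711 (Ighg2b) and chr12:113287652-113287711 (Ighg2c), with 22, 23, 0 and 12 capitals.
Ighg3 CH3: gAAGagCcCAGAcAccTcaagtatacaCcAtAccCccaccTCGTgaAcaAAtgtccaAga
Ighg1 CH3: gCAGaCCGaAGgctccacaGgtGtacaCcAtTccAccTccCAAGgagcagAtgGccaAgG
Ighg2b CH3: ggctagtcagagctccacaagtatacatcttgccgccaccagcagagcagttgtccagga
Ighg2c CH3: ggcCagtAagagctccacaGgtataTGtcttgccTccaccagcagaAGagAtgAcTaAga

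At the read length of 75 bases, at most 0.77% of the windows of any member (Ighg2b) were found unchanged in another member. At 30 bases the share was 15.82% in Ighg2c and 9.67% in Ighg2b, and 0 in Ighm, Ighd, Ighe and Igha. How the authors' counting assigned reads that fit several subclasses is not given in the sources used here, so small counts of 1 IgG gene beside large counts of another are uncertain.

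Library totals ran from 19385642 to 58550621 counts, and levels are given as CPM of the library size after TMM scaling (normalized CPM). In PBS mice, 6 of 6 cortical markers were lower and 5 of 6 hippocampal markers higher in hippocampus than in cortex, with Wfs1 the exception. Among the tested markers of erythrocytes, neutrophils, choroid plexus, meninges, neurons, astrocytes, microglia and oligodendrocytes, 0 were called in either tissue between α-IgLON5 and control IgG mice. In hippocampus the median log2 fold change was 0.67 for the 4 microglial markers and -1.11 for the 4 tested choroid plexus markers. In bulk tissue, fewer cells of a type and less RNA per cell cannot be told apart. The α-IgLON5 mice were numbered 8, 9, 16 and 17, and the control mice 10 to 15 or 32 to 75. The labels do not say what the numbers stand for, and the calls left within the range 8 to 17 are therefore given for the comparisons with control IgG. That range keeps every α-IgLON5 library but only control IgG hippocampi 10 and 15 and control IgG cortices 10, 11 and 15. Its control groups were thus smaller than in the main fit. The hippocampus library of α-IgLON5 mouse 9 stood apart from its group, with a chi-square per degree of freedom of 168 to 265 in its 3 pairs against 4.50 to 98.3 in the other 45 pairs of libraries within groups. Without mouse 9 the members called against control IgG numbered 6 in hippocampus and 5 in cortex, as with it.

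In mice that received PBS, IgM RNA was the main heavy constant RNA of both tissues. Ighm stood at 24.5, 16.3, 13.8, 15.4 and 17.3 normalized CPM in the cortices of PBS mice 14, 32, 33, 38 and 74, and at 8.67, 7.04, 6.80, 7.78 and 7.72 in their hippocampi. Each of these mice was higher in cortex, and the 2 tissues did not overlap. In an added comparison, chosen after the counts were seen, Ighm was lower in PBS hippocampus than in PBS cortex by a log2 fold change of -1.20 ± 0.38 (SE, adjusted p = 0.0172), 1 of 2 members among the 14.1% of all tested genes that were lower. Without mouse 14, 32 or 74 that call was lost, with adjusted p-values of up to 0.0733.

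The other member of that pair was Ighg2c. Its level was 2.94, 2.31, 2.29, 1.61 and 2.06 normalized CPM in PBS cortices and 0.136, 0.180, 0.117, 0.0297 and 0.0471 in PBS hippocampi of the same mice. In counts this was 51 to 94 per cortex library against 1 to 11 per hippocampus library, with no overlap. The log2 fold change between tissues was -4.34 ± 0.37 (SE, adjusted p = 3.81e-09), and it kept its call under every alternative run. The other IgG genes and Igha were at or near 0 in both tissues of the PBS mice. Ighg1 had 0 counts in all 5 cortices and at most 3 counts in a hippocampus, Ighg2b and Ighg3 at most 13 counts in either tissue, and Igha at most 13.

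**Figure D1:**
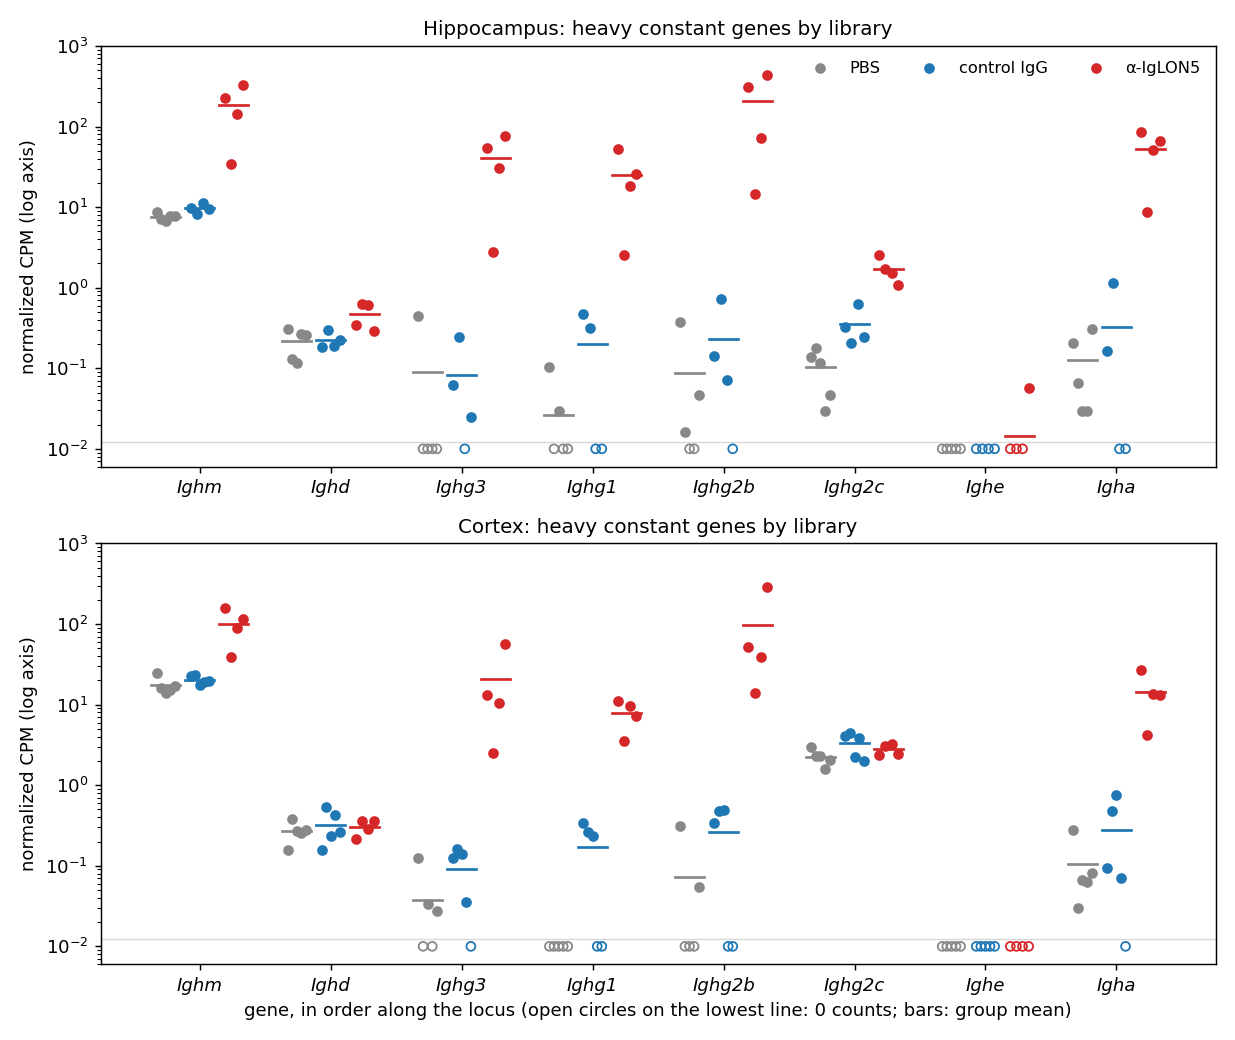
Normalized CPM of the 8 heavy constant genes in hippocampus (top) and cortex (bottom), on a log axis, with 1 point per library, a bar at each group mean and open circles for libraries with 0 counts. In hippocampus the α-IgLON5 libraries lie above all control libraries for Ighm, Ighg3, Ighg1, Ighg2b, Ighg2c and Igha, whereas in cortex Ighg2c lies between 1.61 and 4.47 in every group.

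Heavy constant RNA of most isotypes rose in the hippocampus of mice infused with α-IgLON5. Compared with control IgG, 6 of the 7 tested members were higher (adjusted p under 0.05 and a fold above 2), where 2.21% of all tested genes were called higher. These were Ighm, Ighg3, Ighg1, Ighg2b, Ighg2c and Igha, so that IgM, all 4 IgG subclasses and IgA were among them. Ighg3 and Igha passed the count filter only through the α-IgLON5 libraries, as fewer than 4 control libraries held at least 10 counts of either. Their entry into the test thus depended on the group in which they were high. Ighd was not called. The same 6 members were called against PBS, where 2.56% of all tested genes were called higher, but both comparisons use the same 4 α-IgLON5 libraries.

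Ighm, the IgM gene, reached 223, 34.0, 144 and 329 normalized CPM in the hippocampi of α-IgLON5 mice 8, 9, 16 and 17. In the hippocampi of control IgG mice 10, 15, 37 and 75 it stood at 9.83, 8.29, 11.2 and 9.55. All 4 α-IgLON5 hippocampi were above all controls, and mouse 9 was the lowest of them. The group means were 183 ± 125 (SD, n = 4) and 9.71 ± 1.19 (SD, n = 4), with a log2 fold change of 4.24 ± 0.44 (SE, edgeR adjusted p = 8.44e-07).

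Ighg2b, whose product binds the activating Fc receptors, was the IgG gene with the highest counts. It stood at 308, 14.4, 71.0 and 432 normalized CPM in α-IgLON5 hippocampi 8, 9, 16 and 17, that is 6262, 256, 2317 and 15067 counts. Control IgG hippocampi 10, 15, 37 and 75 held 0.143, 0.714, 0.0714 and 0 normalized CPM, and the PBS hippocampi 14, 32, 33, 38 and 74 held 0.375, 0.0164, 0, 0 and 0.0471. The groups did not overlap, and the lowest α-IgLON5 library was mouse 9 again. The log2 fold change against control IgG was 9.64 ± 1.14 (SE, adjusted p = 3.37e-06). It was 11.35 without control IgG mouse 15 and 8.98 without α-IgLON5 mouse 17.

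Ighg3, the subclass best known from responses without T cell help, stood at 54.3, 2.76, 30.7 and 75.4 normalized CPM in α-IgLON5 hippocampi 8, 9, 16 and 17. The control IgG hippocampi 10, 15, 37 and 75 held 0.0613, 0.244, 0 and 0.0245. Its log2 fold change was 8.76 ± 1.08 (SE, adjusted p = 5.42e-06), and 10.24 without control IgG mouse 15. Mouse 17 was highest for Ighg3, Ighg2b and Ighm alike.

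Ighg1 showed a different order of mice. It was highest in mouse 8, at 52.0 normalized CPM, with 2.54 in mouse 9, 18.23 in mouse 16 and 26.1 in mouse 17. Control IgG hippocampi 10, 15, 37 and 75 held 0.470, 0.320, 0 and 0. The log2 fold change was 6.85 ± 0.83 (SE, adjusted p = 1.17e-05), and the 2 groups did not overlap. It was 7.62 without control IgG mouse 10 and 6.20 without α-IgLON5 mouse 8.

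Igha, the IgA gene, was likewise highest in mouse 8. Its level was 85.7, 8.67, 50.9 and 66.5 normalized CPM in α-IgLON5 hippocampi 8, 9, 16 and 17. In control IgG hippocampi 10, 15, 37 and 75 it was 0.164, 1.13, 0 and 0. All α-IgLON5 values lay above the controls, with a log2 fold change of 7.21 ± 0.80 (SE, adjusted p = 1.57e-06). Control IgG mouse 15 held 60 of the control counts, and without it the value was 9.70.

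Ighg2c rose less than the other IgG genes. Its level was 2.56, 1.69, 1.502 and 1.09 normalized CPM in α-IgLON5 hippocampi 8, 9, 16 and 17, that is 52, 30, 49 and 38 counts. Mouse 17, which was highest for Ighg2b, was lowest for Ighg2c. Control IgG hippocampi 10, 15, 37 and 75 held 0.327, 0.207, 0.619 and 0.245, below every α-IgLON5 hippocampus. The log2 fold change was 2.27 ± 0.35 (SE, adjusted p = 0.000135) against control IgG and 3.92 ± 0.39 (SE, adjusted p = 1.63e-07) against PBS. Of the 1296 windows of 30 bases in Ighg2c, 205 occur in another member, and the part of reads from other IgG genes in its counts was not tested.

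Ighd and Ighe stayed low. Ighd was at 0.344, 0.620, 0.613 and 0.286 normalized CPM in α-IgLON5 hippocampi 8, 9, 16 and 17 and at 0.184, 0.301, 0.190 and 0.221 in control IgG hippocampi 10, 15, 37 and 75, so the groups overlapped. Its log2 fold change of 1.02 ± 0.36 (SE) had an adjusted p of 0.0827, and without α-IgLON5 mouse 17 it passed the threshold. The 2 counts of Ighe came from the hippocampus of α-IgLON5 mouse 17. For the libraries at 0, a count of 0 allows up to 3 counts, which covers counting error only.

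With only the mice numbered 8 to 17, 4 of these 6 hippocampal calls remained (Ighm, Ighg1, Ighg2c and Igha), beside 49 of all tested genes called in either direction. Ighg3 and Ighg2b missed the threshold there, with adjusted p-values of 0.0847 and 0.0882 at log2 fold changes of 8.00 and 8.87.

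**Figure D2:**
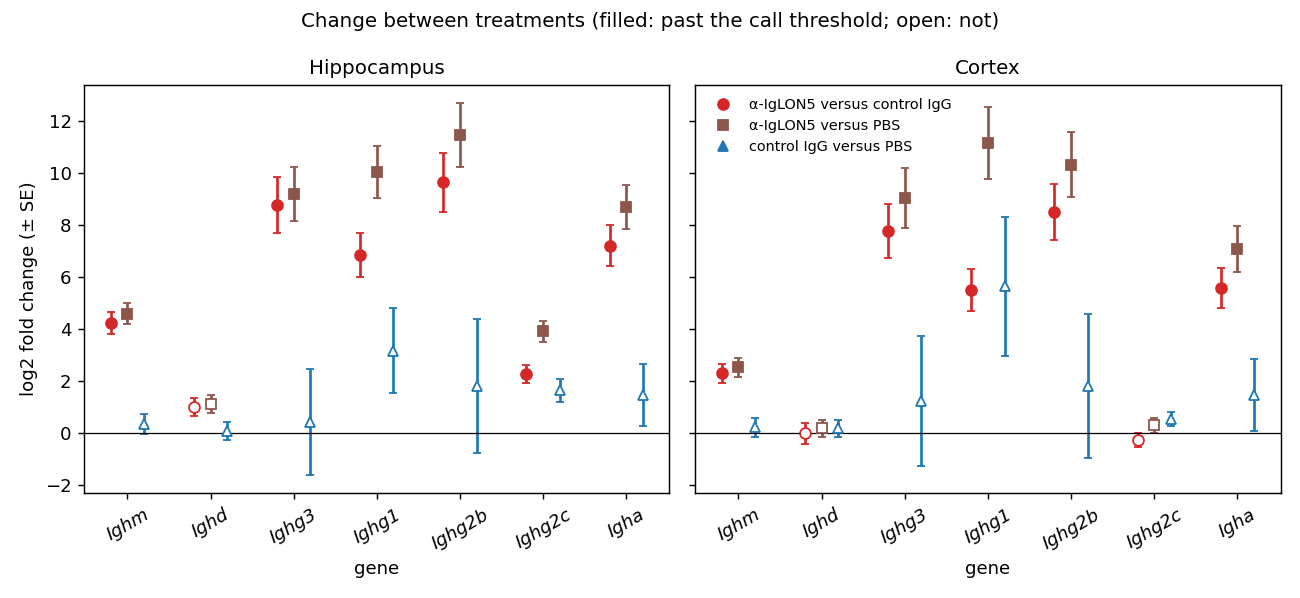
Log2 fold change of the 7 tested genes in hippocampus (left) and cortex (right), with bars of 1 SE, for α-IgLON5 against control IgG, α-IgLON5 against PBS and control IgG against PBS. Filled symbols passed the threshold, and in cortex Ighg2c and Ighd are open in all 3 comparisons. The cortical values of Ighg1 against PBS depend on the prior count, since all PBS cortices had 0 counts.

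In cortex the same isotypes rose, with the exception of IgG2c. Compared with control IgG, 5 of the 7 tested members were called higher (Ighm, Ighg3, Ighg1, Ighg2b and Igha), where 2.14% of all tested genes were. Against PBS the same 5 were called, where 2.24% of all tested genes were. Among these, Ighg3 and Igha had entered the test only through the α-IgLON5 libraries. Ighm stood at 159, 38.5, 88.7 and 117 normalized CPM in α-IgLON5 cortices 8, 9, 16 and 17 and at 22.6, 23.5, 17.4, 19.3 and 19.6 in control IgG cortices 10, 11, 15, 37 and 75. The α-IgLON5 cortices were all higher, by a log2 fold change of 2.30 ± 0.37 (SE, adjusted p = 0.000269).

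Mouse 17 stood apart for Ighg2b in cortex. The gene was at 52.6, 13.8, 38.8 and 285 normalized CPM in α-IgLON5 cortices 8, 9, 16 and 17, and at 0.344, 0.479, 0.494, 0 and 0 in control IgG cortices 10, 11, 15, 37 and 75. Ighg3 likewise had 13.2, 2.53 and 10.6 in mice 8, 9 and 16 but 57.3 in mouse 17, with 0 to 0.160 in the control IgG cortices. The log2 fold changes were 8.49 ± 1.07 (SE, adjusted p = 1.75e-05) for Ighg2b and 7.79 ± 1.04 (SE, adjusted p = 3.14e-05) for Ighg3. Without mouse 17 they were 7.02 and 6.53, and both remained called.

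Ighg1 and Igha were spread less widely in cortex. Ighg1 was at 11.0, 3.50, 9.64 and 7.17 normalized CPM in α-IgLON5 cortices 8, 9, 16 and 17 and at 0 to 0.344 in the control IgG cortices, a log2 fold change of 5.50 ± 0.81 (SE, adjusted p = 0.000175). Against the PBS cortices, all at 0, the mean was at least 85.1-fold higher, taking the limit of 3 counts per library. Igha was at 26.9, 4.19, 13.4 and 13.3 and at 0 to 0.754 in the same groups, with a log2 fold change of 5.60 ± 0.77 (SE, adjusted p = 4.42e-05), or 6.76 without control IgG mouse 15. None of these groups overlapped.

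Cortical Ighg2c did not follow the other IgG genes. Its level was 2.36, 3.10, 3.21 and 2.44 normalized CPM in α-IgLON5 cortices 8, 9, 16 and 17 and 4.10, 4.47, 2.24, 3.897 and 1.995 in control IgG cortices 10, 11, 15, 37 and 75. The groups overlapped, and the log2 fold change was -0.25 ± 0.27 (SE, adjusted p = 0.72). Against PBS it was 0.31 ± 0.28 (SE, adjusted p = 0.846). Ighg2c thus had 86 to 136 counts in the same libraries in which Ighg2b had 383 to 15898. Ighd was at 0.217 to 0.361 in α-IgLON5 cortices and 0.157 to 0.532 in control IgG cortices, with an adjusted p of 0.999.

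With only the mice numbered 8 to 17, none of the 5 cortical calls remained, with log2 fold changes of 2.27 to 7.80 and adjusted p-values of 0.062 to 0.15. In that fit 9 of all tested genes were called.

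The infusion of control IgG was compared with PBS as the background of antibody infusion. In hippocampus 0 of 7 members were called, where 0.0641% of all tested genes were called in either direction and 2828 had an unadjusted p under 0.05. In cortex 0 of 7 were called, where 0% of all tested genes were, although 1650 genes had an unadjusted p under 0.05, Ighg1 and Ighg2c among them. Ighg2c was the member nearest to a call, since all 4 control IgG hippocampi lay above all 5 PBS hippocampi. Its log2 fold change was 1.65 ± 0.45 (SE, unadjusted p = 0.00108, adjusted p = 0.0834). DESeq2 called it, with an adjusted p of 0.015, and so did the edgeR fit without control IgG mouse 15, with an adjusted p of 0.0256. Calls among all tested genes rose as well, to 69 with DESeq2 and 127 without mouse 15, against 13 in the main fit.

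The switched genes were not spread evenly over the control mice. The summed counts of Ighg1, Ighg2b, Ighg3 and Igha were 33 to 128 in the 3 control hippocampi of mice numbered 10 to 15 and 1 to 15 in the 6 of mice numbered 32 to 75. In cortex they were 23 to 69 in 4 libraries and 0 to 6 in 6 libraries. The PBS mouse of the lower number range, mouse 14, had 23 such counts in cortex and 33 in hippocampus, and the other PBS mice had 1 to 6 and 1 to 15. Ighm in control hippocampi was at 8.29 to 9.83 (median 8.67) and 6.80 to 11.2 (median 7.75) normalized CPM in the same 2 sets. In control cortices it was at 17.4 to 24.5 (median 23.05) and 13.8 to 19.6 (median 16.8), higher in the lower number range, with overlap in both tissues. The part of the mouse number in these values was not tested.

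**Figure D3:**
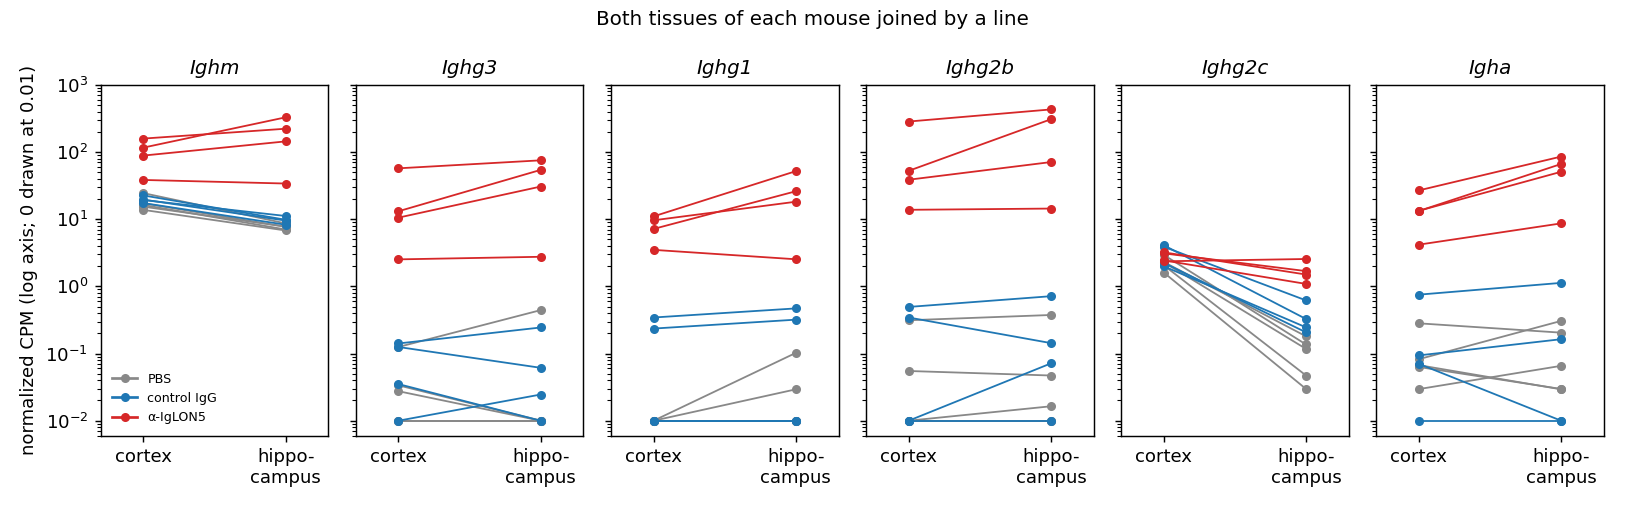
Normalized CPM of 6 genes in cortex and hippocampus on a log axis, with a line joining both tissues of each of the 13 mice that gave both, and libraries with 0 counts drawn at 0.01. Ighm runs downwards from cortex to hippocampus in all PBS and control IgG mice and upwards in 3 of 4 α-IgLON5 mice, and Ighg2c runs downwards in all but α-IgLON5 mouse 8.

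Between the tissues of the α-IgLON5 mice, most heavy constant RNAs were higher in hippocampus than in cortex. The calls rested on the fit used and on how the mice were treated in it. Without pairing, Igha (log2 fold change 1.87 ± 0.58, SE, adjusted p = 0.0187) and Ighg1 (1.65 ± 0.60, SE, adjusted p = 0.0478) were called, 2 of 7 members where 23.9% of all tested genes differed between the tissues. DESeq2 called neither (adjusted p = 0.263 and 0.462), nor did the fit of only the groups compared (0.081 and 0.136). RLE size factors did not call Ighg1 (adjusted p = 0.0502). With the mouse as replicate block, 6 members were called, beside 5449 of all 20271 tested genes. Ighm (0.66, adjusted p = 0.00701), Ighg3 (1.14, adjusted p = 0.00358), Ighg1 (1.31, adjusted p = 0.0129), Ighg2b (1.06, adjusted p = 0.0118) and Igha (1.80, adjusted p = 2.24e-06) were higher in hippocampus. Ighg2c was lower there under the block, at -0.76 (adjusted p = 0.0155).

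The 2 calls without pairing fell to 0 when mouse 16 or mouse 17 was left out, where 4173 and 3937 of all tested genes were called. Without mouse 8 the call of Ighg1 was also lost (1.21, adjusted p = 0.206), while Ighg2c was then called lower (-1.05, adjusted p = 0.0292). Leaving out mouse 9 added a call of Ighm, higher in hippocampus (0.93, adjusted p = 0.00416). Igha was higher in hippocampus in 4 of 4 mice. Ighg1 was higher in hippocampus in 3 of 4, with mouse 9 at 2.54 against 3.50 in cortex.

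Whether the response itself differed between tissues was tested as an interaction, the log2 fold change against control IgG in hippocampus minus that in cortex. No member was called, where 0% of all tested genes were, although 2158 genes had an unadjusted p under 0.05. The largest differences among members were 2.53 ± 0.45 (SE, unadjusted p = 6.61e-06, adjusted p = 0.134) for Ighg2c and 1.93 ± 0.54 (SE, unadjusted p = 0.00149, adjusted p = 0.245) for Ighm. With the mouse as replicate block both were called, at 2.40 and 1.68 with an adjusted p of 0.0323 each, and they were the only 2 genes called of all those tested. Without mouse 37 the unpaired fit called Ighg2c, and without mouse 9 it called Ighm. With only the mice numbered 8 to 17, 0 members were called, at 3.0 for Ighg2c (adjusted p = 0.386) and 2.07 for Ighm (adjusted p = 0.632). For Ighg2b, Ighg3, Ighg1 and Igha the differences were 0.97 to 1.62 and were not called with or without the block.

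**Figure D4:**
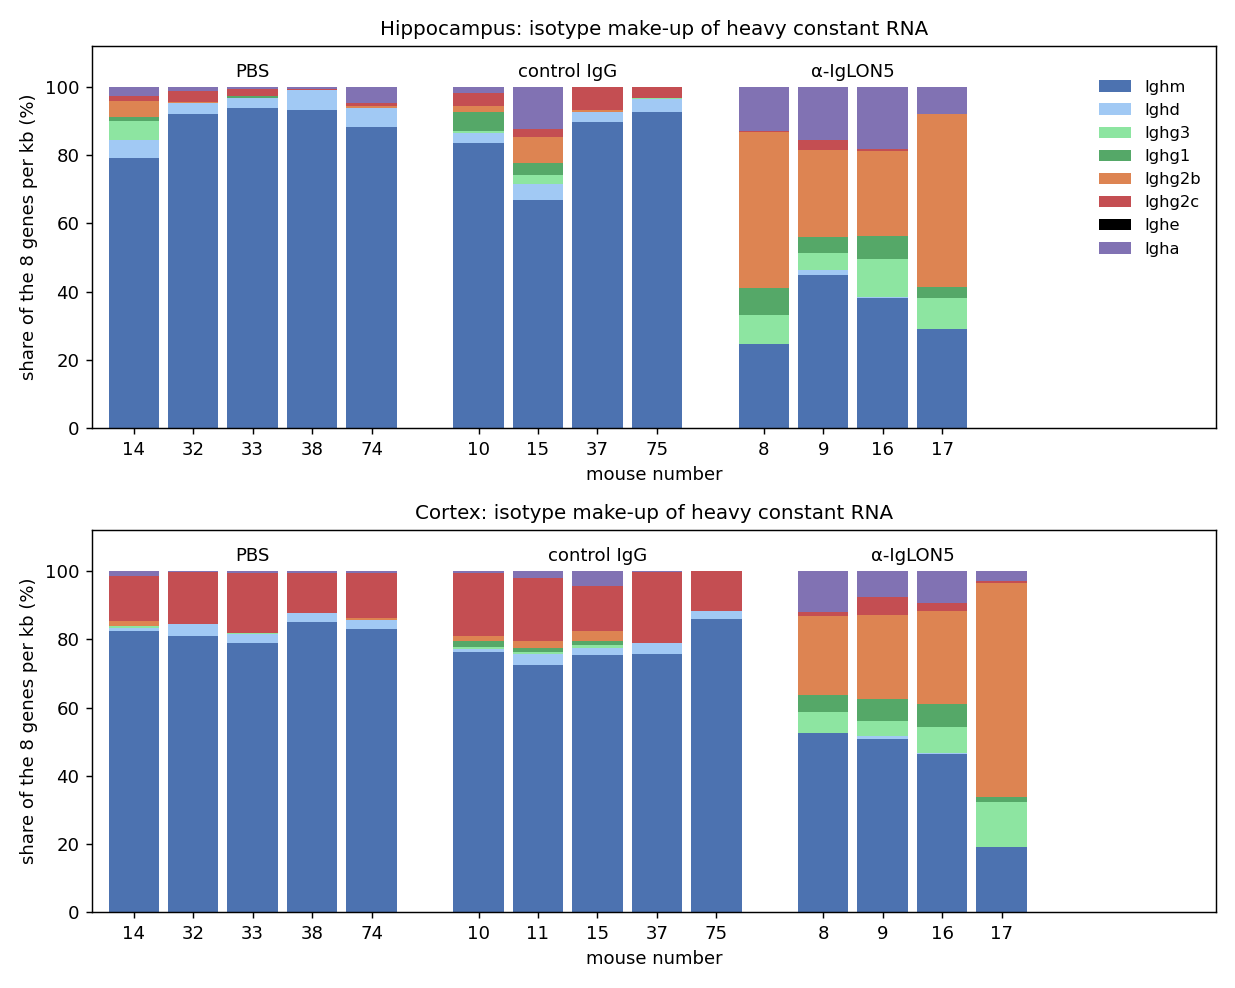
Share of each gene in the 8 heavy constant genes, in percent of counts per kilobase of the secreted transcript, for each library in hippocampus (top) and cortex (bottom). Ighm makes up most of the control bars, cortical controls add a block of Ighg2c, and α-IgLON5 bars are divided among Ighm, Ighg2b, Igha, Ighg3 and Ighg1.

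Ighm made up a smaller share of heavy constant RNA in every α-IgLON5 library than in any control library of the same tissue. Per count, Ighm held a median of 94.7% of the 8 genes in PBS hippocampi, 90.3% in control IgG hippocampi and 40.4% in α-IgLON5 hippocampi. In cortex the medians were 86.5%, 81.4% and 56.1%. These shares are descriptions with no test. In single α-IgLON5 hippocampi the share of Ighm was 30.7%, 52.6%, 45.5% and 35.4% in mice 8, 9, 16 and 17, and exact 95% binomial intervals reached at most from 49.6% to 55.5% (mouse 9, 1149 counts). Reads are not independent molecules, so the intervals cover counting error only.

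Ighg2b was the largest switched class. It held 42.45%, 22.3%, 22.4% and 46.4% of the counts in hippocampi 8, 9, 16 and 17, and 19.8%, 20.95%, 23.55% and 59.1% in the cortices. In cortex mouse 17 was the only one in which Ighg2b exceeded Ighm, which held 24.2% there. Igha held 7.15% to 16.05% in hippocampus and 2.75% to 10.1% in cortex, and mouse 17 had the lowest share in both. Ighg3 held 4.26% to 9.67% and 3.83% to 11.9%, and Ighg1 2.81% to 7.17% and 1.49% to 5.86%. Every α-IgLON5 library thus held all 3 of these classes beside IgM and IgG2b.

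Longer genes collect more counts, so the order of the genes was read per kilobase. By the secreted transcript, the medians in α-IgLON5 hippocampi were 170 normalized CPM per kilobase for Ighg2b, 123 for Ighm, 53.4 for Igha, 39.3 for Ighg3, 20.6 for Ighg1, 1.44 for Ighg2c and 0.597 for Ighd. In α-IgLON5 cortices they were 68.8 for Ighm, 41.0 for Ighg2b, 12.1 for Igha, 11.0 for Ighg3, 7.81 for Ighg1, 2.49 for Ighg2c and 0.402 for Ighd. By the union of all exons, Ighm came before Ighg2b in hippocampus too, at 97.3 against 70.8, so the order of these 2 depends on which transcript form is assumed. The order also depended on single mice, since Ighm exceeded Ighg2b by the secreted transcript in hippocampi 9 and 16. Without mouse 8 or mouse 17 the hippocampal medians were 63.7 for Ighg2b and 96.7 for Ighm. By the secreted transcript, the ranges over mice of neighbouring genes overlapped from Ighm and Ighg2b down to Ighg1 in both tissues, and did not overlap between Ighg1 and Ighg2c or between Ighg2c and Ighd.

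Summed over the 8 genes, the level was 7.10 to 10.3 CPM of the library total in PBS hippocampi, 10.4 to 12.4 in control IgG hippocampi, and 759, 57.2, 326 and 991 in α-IgLON5 hippocampi 8, 9, 16 and 17. In cortex it was 16.1 to 26.4, 21.4 to 28.9, and 274, 68.1, 158 and 496. Mouse 9 was lowest and mouse 17 highest of the α-IgLON5 mice in both tissues. The summed level of 6 meningeal genes was also lowest in mouse 9, at 55.1 normalized CPM in hippocampus and 78.8 in cortex, against 134 to 279 and 135 to 213 in the other α-IgLON5 mice and 86.8 to 269 in all control libraries. Col1a1, a collagen gene among them, was at 6.70 and 2.27 in mouse 9 and at 16.4 to 49.2 in the other α-IgLON5 libraries. The part of meningeal tissue in the constant gene levels was not tested. The ratio of switched counts (Ighg1, Ighg2b, Ighg3 and Igha) to Ighm counts was 2.25, 0.834, 1.18 and 1.82 in α-IgLON5 hippocampi 8, 9, 16 and 17 and 0.653, 0.625, 0.815 and 3.11 in the cortices. It was at most 0.290 in any control library, in the hippocampus of control IgG mouse 15.

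**Figure D5:**
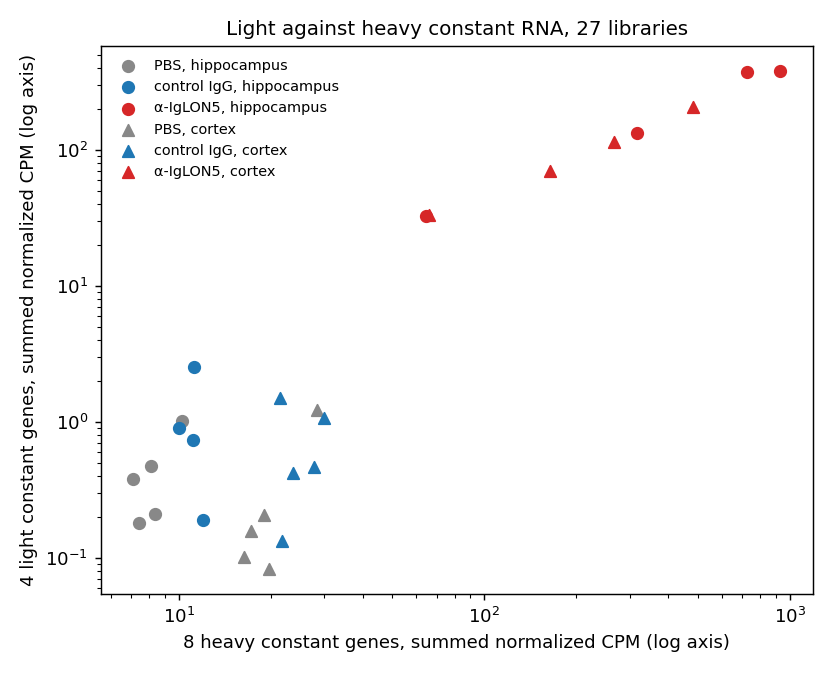
Summed normalized CPM of the 4 light constant genes (vertical) against that of the 8 heavy constant genes (horizontal), both on log axes, with 1 point per library. The 8 α-IgLON5 libraries lie at the upper right, at 32.7 to 380 for the light genes, and the 19 control libraries lie between 0.0825 and 2.52.

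An antibody needs a light chain for each heavy chain. All 4 light constant genes (Igkc for kappa, Iglc1, Iglc2 and Iglc3 for lambda) rose against control IgG in both tissues. Igkc stood at 217 ± 169 (SD, n = 4) normalized CPM in α-IgLON5 hippocampi against 0.971 ± 1.06 (SD, n = 4) in control IgG hippocampi, a log2 fold change of 7.74 ± 0.79 (SE, adjusted p = 8.44e-07). In cortex it was 99.9 ± 74.0 (SD, n = 4) against 0.633 ± 0.529 (SD, n = 5), a log2 fold change of 7.25 ± 0.76 (SE, adjusted p = 3.64e-06). The lambda genes had log2 fold changes of 5.34 (Iglc1), 8.73 (Iglc2) and 7.74 (Iglc3) in hippocampus. Single libraries moved several of these values, as Iglc1 was at 8.68 without control IgG mouse 10 and at 4.68 without α-IgLON5 mouse 17, Iglc3 at 9.06 without mouse 10 and at 7.03 without α-IgLON5 mouse 16, and Igkc at 8.88 without control IgG mouse 15. In cortex Igkc was at 7.96 without control IgG mouse 15 and at 6.66 without α-IgLON5 mouse 17, and without control IgG mouse 37 Iglc1 was at 8.50 and Iglc3 at 8.43. With only the mice numbered 8 to 17, Igkc and Iglc2 were still called in hippocampus, and Iglc1 (adjusted p = 0.153) and Iglc3 (adjusted p = 0.0835) were not. In cortex 0 of the 4 were still called in that fit, with adjusted p-values of 0.0591 (Igkc) to 0.132 (Iglc1).

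The balance of light and heavy counts differed between control and α-IgLON5 libraries. In the PBS libraries there were 3 to 39 light constant counts beside 242 to 904 heavy constant counts, a ratio of 0.00417 to 0.1. In the α-IgLON5 libraries the ratio was 0.514, 0.505, 0.418 and 0.409 in hippocampi 8, 9, 16 and 17 and 0.429, 0.505, 0.423 and 0.425 in the cortices. Thus the Ighm and cortical Ighg2c counts of control tissue came with few light chain counts, in a ratio below that of every α-IgLON5 library. The highest control ratio was 0.225, in the hippocampus of control IgG mouse 15.

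Jchain, whose product links IgM and IgA subunits into polymers, rose with them. It stood at 52.4, 4.67, 40.2 and 82.0 normalized CPM in α-IgLON5 hippocampi 8, 9, 16 and 17 and at 0.327, 0.959, 0.167 and 0.565 in control IgG hippocampi 10, 15, 37 and 75. The log2 fold change was 6.44 ± 0.65 (SE, adjusted p = 8.44e-07) in hippocampus and 5.23 ± 0.61 (SE, adjusted p = 9.05e-06) in cortex. With only the mice numbered 8 to 17 the adjusted p was 0.0498 in hippocampus and 0.0708 in cortex, so that the cortical call was lost. Jchain was the only one of 3 tested genes of antibody assembly and transport that was called in either tissue, where Derl3 and Fkbp11 were not. Derl3 had an adjusted p of 0.0291 in hippocampus at a log2 fold change of 0.79, below the fold threshold. Pigr, the receptor that carries polymeric antibodies across epithelia, and Mzb1 did not pass the filter.

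Some markers of B lineage cells were also higher in α-IgLON5 mice. In hippocampus 5 of 9 tested B cell markers were called higher than in control IgG mice, among them Cd22, Cd79a, Cd79b and Ms4a1, and in cortex 3 of 9 (Cd22, Cd79b and Ms4a1). Bank1, Cr2, Fcer2a and Pax5 were not called in either tissue, with log2 fold changes of -0.56 (Cr2) to 0.79 (Pax5) in hippocampus and -0.52 (Bank1) to 2.10 (Pax5) in cortex. Their summed level, over 10 listed genes, was 6.42 to 13.9 normalized CPM in α-IgLON5 hippocampi against 4.16 to 5.25 in control IgG hippocampi. Cd79b, the signalling partner of the surface receptor, was at 1.32 ± 0.19 (SD, n = 4) against 0.145 ± 0.073 (SD, n = 4), a log2 fold change of 3.11 ± 0.43 (SE, adjusted p = 2.86e-05). The calls of Cd79a and Ms4a1 in hippocampus depended on single libraries, as leaving out control IgG mouse 10, 15 or 37 ended both. The cortical call of Ms4a1 was likewise lost without control IgG mouse 10, 15, 37 or 75. In the fit of mice numbered 8 to 17, 2 of the 5 hippocampal calls (Cd22 and Cd79b) and 0 of the 3 cortical ones remained.

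Of the 8 tested plasma cell markers, Jchain and Irf4, the transcription factor needed for plasma cells and for class switching, were called in hippocampus, and Jchain and Slamf7 in cortex. Irf4 was at 2.27 ± 1.57 (SD, n = 4) against 0.356 ± 0.066 (SD, n = 4) normalized CPM in hippocampus, a log2 fold change of 2.67 ± 0.40 (SE, adjusted p = 9.94e-05). The summed level of the plasma cell list was 64.3 to 164 in α-IgLON5 hippocampi and 60.6 to 76.0 in control IgG hippocampi, so the ranges overlapped. Of the 6 tested T cell genes, Cd4 and Cd5 were called in hippocampus and Cd3g in cortex. The hippocampal values of Cd4 overlapped between the groups, and its call was lost without α-IgLON5 mouse 8 or 17 and when only the groups compared were fitted. In the fit of mice numbered 8 to 17, none of these 3 T cell calls remained, and of the plasma cell calls only that of Jchain in hippocampus did. The cortical call of Slamf7 was also lost without α-IgLON5 mouse 8. No listed gene of these 3 cell types was called lower, and their part in the constant gene levels was not tested.

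The machinery of class switching was measured at gene level as well. Of 16 listed genes 14 were tested, and 3 were called higher in hippocampus against control IgG (Batf, Irf4 and Tnfrsf13b) and 1 in cortex (Batf). Batf, a transcription factor that B cells need for switching, was at 1.18 ± 0.53 (SD, n = 4) against 0.211 ± 0.133 (SD, n = 4) normalized CPM in hippocampus, a log2 fold change of 2.43 ± 0.48 (SE, adjusted p = 0.00219). Tnfrsf13b, a receptor for the B cell survival factors, had 1.39 ± 0.18 (SE, adjusted p = 1.33e-05). Among the mice numbered 8 to 17, 0 of these 3 hippocampal calls and 0 of the cortical ones remained. The tested DNA repair genes of the list were not called in either tissue. The median log2 fold change of the list in hippocampus was 0.07, beside 0.00125 over all tested genes.

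Among cytokines and receptors that steer switching, 10 of 18 listed genes were tested, and 2 were called higher in hippocampus (Il21r and Tnfsf13b) and 2 in cortex (Il21r and Il4ra), where 2.21% and 2.14% of all tested genes were. Their median log2 fold change was 0.59 in hippocampus and 0.45 in cortex, beside 0.00125 and -0.00661 over all tested genes. Tnfsf13b, the survival factor BAFF, was at 3.53 ± 2.30 (SD, n = 4) against 1.27 ± 0.10 (SD, n = 4) normalized CPM in hippocampus, a log2 fold change of 1.45 ± 0.28 (SE, adjusted p = 0.00147), which missed the threshold when only the groups compared were fitted. The cortical call of Il4ra, at 1.01 ± 0.27 (SE, adjusted p = 0.0328), was lost without α-IgLON5 mouse 8 without each of control IgG mice 10, 11, 37 and 75, and when only the groups compared were fitted. Within the mice numbered 8 to 17, Il21r in hippocampus was the only one of these calls that remained. Ifng, which favours IgG2c, had 0 counts in all hippocampi and at most 1 count in a cortex.

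Several Fc receptors, which bind the constant regions of antibodies, were called in both tissues in the fit of all mice. In hippocampus 5 of 8 tested genes were higher than in control IgG mice (Fcer1g, Fcgr1, Fcgr2b, Fcgr3 and Fcgr4), and in cortex 4 of 8 (Fcer1g, Fcgr1, Fcgr2b and Fcgr4). Fcgr4, which binds IgG2b and IgG2c, had the largest change, with 3.75 ± 1.94 (SD, n = 4) against 0.248 ± 0.259 (SD, n = 4) normalized CPM in hippocampus and a log2 fold change of 3.82 ± 0.67 (SE, adjusted p = 0.000614). Fcgr2b, the inhibitory receptor, had 1.72 ± 0.28 (SE, adjusted p = 0.000275). The median log2 fold change of the 8 genes was 1.24 in hippocampus and 1.00 in cortex, beside 0.00125 and -0.00661 over all tested genes. When mice numbered 8 to 17 were fitted alone, 0 of the 5 hippocampal and 0 of the 4 cortical calls remained. Fcgr3 then fell below a fold of 2 in hippocampus, and the other genes had adjusted p-values of 0.0964 to 0.183 in hippocampus and 0.104 to 0.225 in cortex. The summed level of the microglial markers moved with these genes in hippocampus, at 203 to 373 normalized CPM in α-IgLON5 mice against 166 to 193 in control IgG mice, and overlapped in cortex, at 197 to 233 against 172 to 206. Among them Cx3cr1 was at 68.7 to 148 against 53.2 to 57.9 in hippocampus, a log2 fold change of 0.89 (adjusted p = 0.000114) below the fold threshold. It was 1 of 4 listed microglial markers, of which 0 were called, and the other markers are not given singly here. They need not have moved as Cx3cr1 did. The part of microglia in the Fc receptor levels was not tested. In the cortex without α-IgLON5 mouse 8 the call of Fcgr1 was lost, since its fold then fell below 2.

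Genes of like profile were sought outside the immunoglobulin heavy, kappa and lambda genes, which were left out of the ranking. Among the rest, the profiles over the 27 libraries most like that of Ighm were those of Pirb, Itgal, C3ar1, Slpi and Ms4a6d. Their mean absolute differences were 0.58 to 0.71 on the centred log2 CPM scale. For the sum of the 4 IgG genes they were Jchain (1.32), Il1b, Cxcl13, C3 and Cd72 (1.78). The sum without Ighg2c, added after the data were seen, was nearest to Saa3 (2.12), C3, Jchain, Ccl5 and Cxcl13 (2.41). Ighg2c, added likewise, was nearest to other genes, namely Rspo1 (0.75), Trbc2 (0.75), Gm11549, Myl4 and Myhas (0.82). All 27 libraries share the same 14 mice, 13 of which contributed 2 libraries, so these distances are descriptions.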

How the data were processed

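RNA from cortex (14 libraries) and hippocampus (13 libraries) of 14 mice was sequenced by the authors with a stranded mRNA kit and paired reads of 75 cycles. The deposited table holds, for each library, the read counts of each gene as whole numbers, with no normalization by the authors. The submitters' processing notes name STAR with version 1.4.0. The counting program, its strand setting, its handling of shared reads and the annotation release are not given in the sources used here. Gene names, lengths and sequences came from GENCODE M21 (GRCm38), which matched 55227 of 55487 identifiers. Libraries held 19385642 to 58550621 counts, 0 columns were left unassigned, and no 2 libraries of a group repeated each other (chi-square per degree of freedom of at least 4.495 in all 48 pairs). Groups and mouse numbers came from the sample titles. Each number was taken as 1 mouse. The main fit counted the 27 libraries as separate units and pooled their spread over both tissues, although 13 mice gave 2 libraries. Its p-values thus measure the spread among these libraries of these mice only.

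In R 4.3.3, edgeR 4.0.16 (TMM, glmQLFit, glmQLFTest) was fitted to all 27 libraries with 6 groups and no covariate, after a filter (10 counts or more in 4 libraries or more) that left 20271 genes, and Benjamini-Hochberg adjustment ran over all of them. A treatment call needs an adjusted p under 0.05 and a fold above 2, and a tissue or interaction call an adjusted p under 0.05. The study's methods name DESeq2, which served as an alternative (DESeq2 1.42.0). The SE of a log2 fold change was its size over the square root of the F statistic. Fold changes against groups near 0 counts depend on the prior count of the fit. Shares have exact (Clopper-Pearson) 95% intervals. The fit was tested on simulated counts.

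Mouse numbers pair both tissues of 13 mice. The correlation of the 2 libraries' deviations from their group means was -0.0498 to 0.4432 (median 0.194), above 0.1 in 8 mice, and the pairing itself comes from the titles. The 8 members and the 18 gene lists were chosen with earlier results of these data known. Named were all 8 members and at most 6 called genes of each list with the largest change in hippocampus against control IgG. Listed genes whose role is described were named too, with the 5 genes nearest to Ighm and to the IgG sum. These nearest genes were sought outside the immunoglobulin heavy, kappa and lambda genes. Alternatives were DESeq2, RLE size factors, no count filter beyond 1 count, only the groups compared, only mice numbered 8 to 17, no fold threshold, the replicate block and leaving out each library or mouse. Some results of the gene lists are not reported here.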

Additional observations from a re-analysis of the deposited data

Results flagged for a closer look

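Of the 37 combinations of member and group of 4 or 5 libraries that were examined for a library far from the others, 1 was singled out, where chance alone gives about 1 in 20. In the PBS hippocampi, mouse 14 had 13 counts of Ighg3 (0.444 normalized CPM) and the other 4 mice had 0, so that the gap took up the whole range of the group (ratio 1.0). With 4 libraries tied at 0, any count above 0 gives that ratio, so the rate of 1 in 20 does not hold for this group. The cortex of the same mouse had 4 counts of Ighg3.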

How the results depend on the processing

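Against PBS, α-IgLON5 had 5 called members in cortex and 6 to 7 in hippocampus under every alternative run. The fit of only mice numbered 8 to 17 was not run against PBS, where 1 PBS mouse lies in that range. Against control IgG, leaving out libraries gave 5 in cortex and 6 to 7 in hippocampus, and only mice numbered 8 to 17 gave 0 and 4. In that last fit 9 and 49 of all tested genes were called. The same fit ended most calls of the gene lists (their values stand beside them). For control IgG against PBS in hippocampus, DESeq2 called 1 member (Ighg2c) in place of 0, and leaving out libraries gave 0 to 1. All tested genes called there numbered 69 with DESeq2 and 127 without control IgG mouse 15, in place of 13. For α-IgLON5 hippocampus against cortex, DESeq2 called 0 members, RLE size factors 1, the fit of only the groups compared 0 and the replicate block 6, in place of 2, and leaving out mice gave 0 to 3. All tested genes called numbered 5017 with DESeq2, 4837 with RLE, 3522 with only the groups compared and 5449 with the block, in place of 4843. The interaction had 1 with no count filter, 2 with the replicate block and 0 to 1 when mice were left out, in place of 0. All tested genes called in the interaction numbered 2 with no count filter and 2 with the block, in place of 0. PBS hippocampus against cortex had 1 to 2 when mice were left out. It had 1 without mouse 14, 32 or 74, where 4337, 4380 and 4388 of all tested genes were called, in place of 5420. The block changed no other member's call. The cause of these changes was not tested.

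Reversed signs of members and Jchain occurred in log2 fold changes that were not called. For control IgG against PBS in hippocampus, leaving out libraries gave ranges of -0.085 to 0.24 for Ighd, -1.05 to 4.77 for Ighg3, -1.01 to 2.16 for Igha and -0.47 to 0.36 for Jchain, and DESeq2 gave -0.033 for Ighg3. In cortex the ranges were -0.012 to 0.37 for Ighd and -0.25 to 0.28 for Jchain. For cortical Ighd, α-IgLON5 against control IgG, DESeq2 gave 0.0015, no filter 0.017, only the groups compared 0.025, mice 8 to 17 0.12 and left-out libraries -0.18 to 0.20. Between PBS tissues, DESeq2 gave 0.21 and the replicate block 0.25 for Ighg2b, RLE gave -0.0038 for Jchain, and left-out mice gave -2.44 to 1.04 for Ighg3, -0.093 to 0.17 for Ighg2b, -0.51 to 0.84 for Igha and -0.095 to 0.085 for Jchain.

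Median isotype shares moved by less than the spread between mice under the length and left-out-mouse settings. With 4 α-IgLON5 mice and 0 to 3 counts of several members in many control libraries, folds against controls are imprecise. Control IgG mouse 11 had no hippocampus library, so 13 mice had both tissues.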
